A study of Homo sapiens with 16 samples.

Results

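The comparison described here is that of 16HBE-ex14 cells stimulated with HGF against 16HBE-ex14 cells without HGF, 4 arrays each, chosen by their labels as 8 of the 16 arrays of the series. 16HBE cells are human bronchial epithelial cells immortalised with SV40 large T antigen. 16HBE-ex14 cells carry MET whose exon 14 was lost after CRISPR/Cas9 editing, and the arrays come from 1 edited clone, clone F, so a property of that clone cannot be told apart from the genotype. All cultures had been kept without serum for 2 h, and HGF was then given at 20 ng/mL for 24 h. The other 8 arrays are 4 of 16HBE-WT and 4 of 16HBE-WT+HGF. They show whether a gene moved in the same way where MET was not edited. They also entered the filter on dim probes and the estimate of the spread behind every adjusted p. With only the 8 16HBE-ex14 arrays fitted, 246 probes were called in place of 693. Samples of the 16HBE-WT+HGF group have titles spelled differently from those of 16HBE-WT, and their group was taken from the genotype and treatment labels. Each of the 4 array rows, 2 on each of 2 slides, held 1 array of every condition. The labels do not tie an array to one of the separate cultures, so the p values measure the spread between these arrays, part of which may be technical.

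MET is the receptor tyrosine kinase that binds HGF, and ligand binding leads through the adaptors GAB1 and GRB2 to the ERK and AKT pathways. Exon 14 encodes the juxtamembrane segment, which holds the tyrosine that recruits the ubiquitin ligase CBL and so limits how long the active receptor stays on the cell. In epithelia, HGF is known for scattering cells, that is for loosening their contacts, and for driving migration and branching.

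Labelled RNA had been hybridised to one-colour arrays, and signals are given as log2 values relative to the 75th percentile of each array. That percentile was 229 ± 13.6 intensity units over the 16HBE-ex14 arrays and 223.6 ± 27.1 over the 16HBE-ex14+HGF arrays (SD, n = 4 each; exact permutation test, two-sided, p = 0.743). The share of probes well above background was 53.7% ± 2.21 without and 57.93% ± 1.90 with HGF (SD, n = 4; exact permutation test, p = 0.0571, where the smallest possible p is 0.0286). All 10 epithelial markers and all 6 airway basal markers examined were above background on all 8 arrays, and of these ELF3, KRT5 and KRT14 fell with HGF, while the immune marker CSF1R also fell. The other basal markers KRT15, TP63, DLK2 and NGFR had values of 0.42, 0.43, 0.06 and -0.05, none of them called. The summed epithelial level ran from 10.96 to 11.07 without and from 10.98 to 11.18 with HGF. The summed basal level ran from 4.83 to 4.95 without and from 4.79 to 5.01 with HGF. Of 8 fibroblast markers, 3 had a tested probe, and their summed level ran from -1.82 to -1.08 without and from -1.48 to -1.43 with HGF, while COL1A2, COL3A1, DCN and PDGFRA were above background on 0 arrays. Of 5 endothelial markers 2 were tested, with PECAM1 and TEK above background on 0 arrays, and of 7 immune markers 4 were tested, with MS4A1 on 0 arrays and with summed levels of 0.53 to 1.17 without and -0.03 to 0.70 with HGF. One array stood toward the other group: 16HBE-ex14 replicate 3 was the unstimulated array nearest to the stimulated ones for 14 of the 15 largest rises and 13 of the 15 largest falls named below. Counts without it are given below for all probes, for the difference between the genotypes' responses and for the ERK feedback and junction lists. The fits with 1 array left out also cover it, and its part was not otherwise tested.

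HGF changed the signal of 693 of the 34599 probes tested in 16HBE-ex14 cells, 2% of them, with 362 raised (1.05%) and 331 lowered (0.957%). A probe was counted as changed when limma gave an adjusted p below 0.05 (Benjamini-Hochberg over all probes) and the fold change was above 1.5. Taken by the brightest probe of each of 26368 gene names, 297 genes rose (1.13%) and 260 fell (0.986%). The median absolute log2 change of these genes was 0.93, and 139 rises and 86 falls were more than 2-fold. Another 251 genes passed the adjusted p and not the fold limit. The nearest to the limits on the inside were GJA5, with a log2 change of -0.66 and an adjusted p of 0.0498, and MTCL1, with -0.59, and on the outside FGFBP1, with -0.75 and an adjusted p of 0.05005, and CDK5R1, with 0.58. Protein-coding genes gave 222 of the rises and 227 of the falls out of 15050 tested, and long noncoding RNAs 26 rises and 15 falls out of 2985.

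The count depended on single arrays and, in its split, on the scaling. Of the unstimulated 16HBE-ex14 arrays, leaving out replicate 2, 3 or 4 gave 346, 977 or 374 calls. Of the stimulated ones, leaving out replicate 3 or 4 gave 377 or 442. Raised probes made up 52.2% of the called ones with the 75th percentile, 45.9% with quantile normalization, 35.5% with scaling to the E1A spike-in probes and 24.1% with scaling to the array median. The median change of all probes was 0.05, 0.00, -0.07 and -0.11 under these 4 scalings, and the changes below are relative to it. Each of the 693 probes kept its sign under all 4 scalings. For the median and spike-in scalings this was fixed in advance, since they shift every change by 1 amount smaller than the fold limit. Sizes of dim genes depended on the background correction. With normexp, which adds an offset of 50 to the signal, the fold change of 30 of the 101 called genes reported here was smaller by more than 1.5 times, and all 101 kept their sign.

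Matrix families and unnamed or antisense transcripts are left out of the ranking that follows. Among the other genes above background on all 8 arrays, with no overlap between the groups, the largest rise was that of VIM, which encodes the intermediate filament vimentin. Its signal was 0.41, 0.88, 1.15 and 1.5 on the 4 unstimulated arrays and 2.89, 3.37, 3.43 and 3.47 on the 4 stimulated arrays. This was a 4.93-fold rise (log2 change 2.30 ± 0.21, standard error; limma, adjusted p = 0.000185), and the probe lies on chr10:17278347-17279256 of hg19. IL37, a cytokine of the interleukin-1 family that dampens inflammation, read -3.56, -3.53, -3.39 and -2.65 without HGF and -1.32, -1.13, -1.04 and -0.84 with it. The groups were apart by more than 1 log2 unit, and the rise was 4.60-fold (2.20 ± 0.26, adjusted p = 0.000963), with a log2 change of 0.93 under normexp. CRCT1, a gene of the epidermal differentiation complex, rose by 1.96 in log2 units (adjusted p = 0.00157), and had its nearest unstimulated array at 0.02 and its lowest stimulated array at 0.87.

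PREX1, an exchange factor that activates the GTPase RAC, read -0.05, 0.00, 0.16 and 0.82 without HGF and 1.61, 1.94, 2.07 and 2.43 with it, a log2 change of 1.78 ± 0.20 (adjusted p = 0.000613). DOCK4, another RAC exchange factor, read -1.22 to -0.18 without and 0.53 to 0.86 with HGF (1.48 ± 0.19, adjusted p = 0.00156). In both genes every stimulated array was above every unstimulated one, as the choice of genes required. ANGPTL4, a secreted inhibitor of lipoprotein lipase that also acts on vessels, read 2.34, 2.55, 2.80 and 3.45 and then 4.16, 4.35, 4.65 and 5.09, a 3.42-fold rise (adjusted p = 0.00181). THBD, the thrombin receptor thrombomodulin, read 0.98, 1.04, 1.25 and 1.34 and then 2.08, 2.56, 3.20 and 3.51, a 3.21-fold rise (adjusted p = 0.0119). JAG1, a membrane ligand of Notch receptors, was dim, at -3.87 to -3.11 without and -2.23 to -1.42 with HGF, and rose 2.79-fold (1.48 in log2 units, adjusted p = 0.00181), or by 0.65 with normexp.

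The remaining rises of this group covered transcription factors and enzymes. The forkhead factor FOXL1 rose by 1.84 and the HMG-box factor TOX2 by 1.53 on the log2 scale (adjusted p = 0.00156 and 0.00239). HSD3B1, a steroid dehydrogenase, rose by 1.83, PLCD4, a phospholipase C, by 1.70 and TMEM200A, a membrane protein, by 1.64 (adjusted p = 0.00918, 0.00207 and 0.0128). DSCAM, an adhesion molecule best known from neurons, rose by 1.86 (adjusted p = 0.00407), by 1 of its 2 probes. The dim second probe of PLCD4 gave 0.52 (adjusted p = 0.764) and was not called. With normexp the changes of DSCAM and PLCD4 were 0.77 and 0.78. UPP1, which splits uridine, rose by 1.51 (adjusted p = 0.0218), and it was no longer called when replicate 1, 2 or 4 of the unstimulated or replicate 2, 3 or 4 of the stimulated arrays was left out. The plot of all 30 genes by array shows the distance between the groups.

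**Figure D1:**
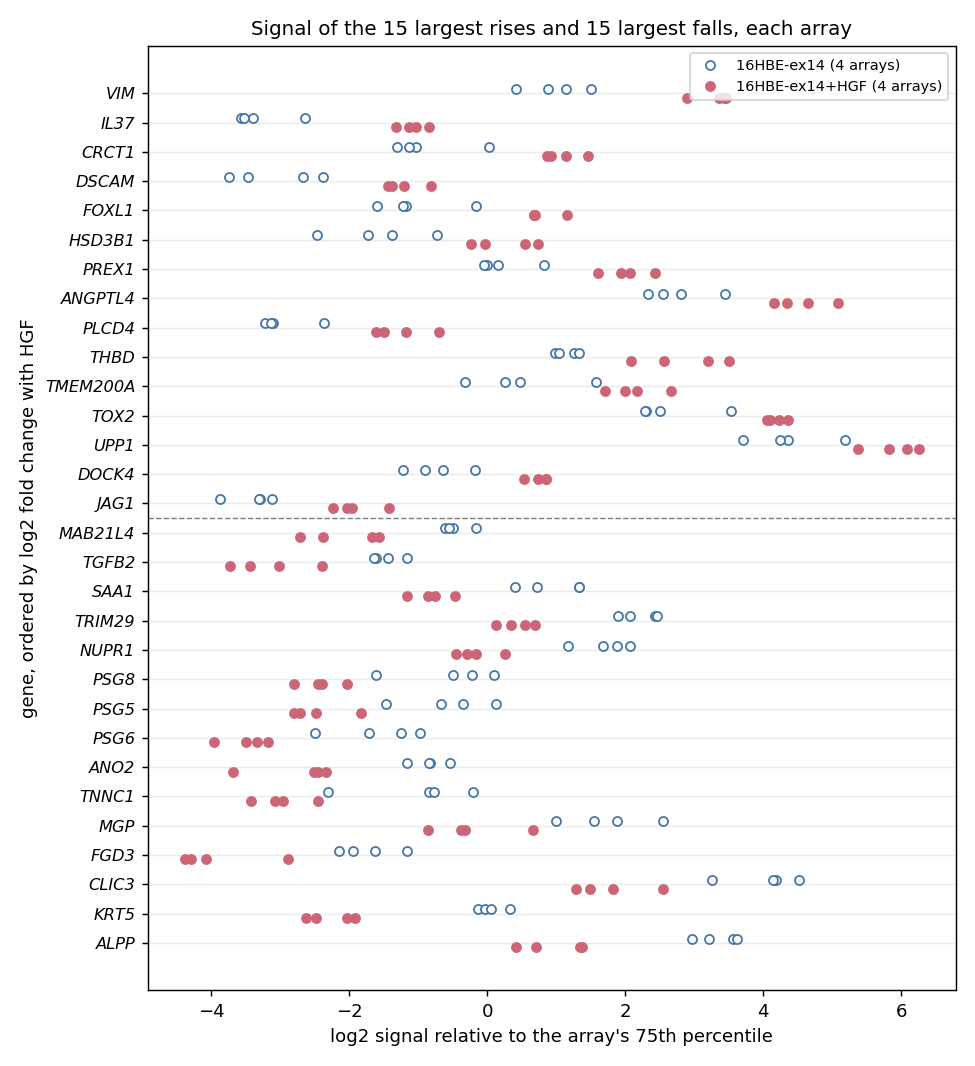
Log2 signal relative to the array's 75th percentile (x axis) for the 30 genes of the largest rises and falls (y axis, 15 each, ordered by log2 fold change with HGF), with open points for the 4 unstimulated and filled points for the 4 stimulated arrays. The groups do not overlap in any of the 30 genes, as the choice of genes required, and VIM moves from 0.41 to 1.5 up to 2.89 to 3.47 while KRT5 moves from -0.14 to 0.33 down to -2.63 to -1.91.

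Under the same limits the largest fall was that of ALPP, the placental alkaline phosphatase, from 2.96, 3.22, 3.56 and 3.62 to 0.42, 0.71, 1.34 and 1.37, a 5.20-fold change (log2 change -2.38 ± 0.22, adjusted p = 0.000196). KRT5, the type II keratin of basal cells, read -0.14, -0.04, 0.06 and 0.33 without HGF and -2.63, -2.48, -2.04 and -1.91 with it. It fell 4.98-fold (-2.32 ± 0.19, adjusted p = 0.000147, the smallest of all probes), and in a culture measured as a whole, fewer cells with a transcript and less of it per cell cannot be told apart. TRIM29, a tripartite motif protein of basal and squamous epithelia, read 1.89, 2.07, 2.43 and 2.45 without and 0.13, 0.34, 0.55 and 0.69 with HGF (-1.78 ± 0.15, adjusted p = 0.000155). The groups were far apart in all 3 genes, and the choice of genes had required that they not overlap. The change of KRT5 was -1.49 with normexp.

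CLIC3, of the chloride intracellular channel family, read 3.26, 4.14, 4.18 and 4.52 and then 1.28, 1.49, 1.83 and 2.55, a 4.73-fold fall (adjusted p = 0.00135). FGD3, an exchange factor for the GTPase CDC42, fell by 2.19 on the log2 scale (adjusted p = 0.00179), opposite in direction to PREX1 and DOCK4. NUPR1, a stress-induced nuclear protein, read 1.17 to 2.06 without and -0.45 to 0.26 with HGF (-1.86, adjusted p = 0.0018). TGFB2, a ligand of the TGF-beta receptors, read -1.64, -1.60, -1.43 and -1.16 and then -3.72, -3.44, -3.02 and -2.39, a 3.22-fold fall (-1.68, adjusted p = 0.00455). With normexp FGD3 changed by -0.79 and TGFB2 by -0.70. The acute phase protein gene SAA1 read 0.41, 0.73, 1.33 and 1.33 and then -1.16, -0.86, -0.76 and -0.46 (-1.76 ± 0.25, adjusted p = 0.00181). MGP, a calcification inhibitor, fell by 1.97 and TNNC1, a troponin, by 1.95 (adjusted p = 0.0111 and 0.011), and TNNC1 changed by -0.99 with normexp. The chloride channel gene ANO2 fell by 1.90 by 1 of its 2 probes (adjusted p = 0.0018), and its dim second probe, above background on 1 unstimulated array, gave 0.22. With normexp the changes of ANO2 and MAB21L4 were -0.96 and -0.92. MAB21L4 fell by 1.62 at an adjusted p of 0.0491, so near the limit that it was no longer called with quantile normalization, without a filter on dim probes or without any 1 of 13 arrays.

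Pregnancy-specific glycoproteins, secreted members of the CEA family, gave 3 of the 15 largest falls. PSG6 read -2.50, -1.72, -1.25 and -0.97 without HGF and -3.96, -3.50, -3.34 and -3.18 with it (-1.88 ± 0.34, adjusted p = 0.0088). PSG5 fell by 1.87 and PSG8 by 1.86 (adjusted p = 0.0153 and 0.0124). These genes lie beside each other on chromosome 19 and their transcripts are near-identical, so the probes may share signal and the 3 falls are not independent. In both PSG5 and PSG8, 16HBE-ex14 replicate 3 was the lowest unstimulated array, at -1.47 and -1.61. With normexp the changes were -0.75 for PSG6, -0.97 for PSG5 and -1.06 for PSG8.

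Some genes crossed the background. IL13RA2, a decoy receptor of interleukin 13, was well above background on 0 unstimulated and 4 stimulated arrays, with means of -5.61 and -2.46, a rise of at least 4.26-fold. By the same bound MPP4, a scaffold protein, was at least 2.4-fold higher, LY96, a co-receptor of TLR4, at least 2.0-fold, PARVB, a parvin of focal adhesions, at least 1.56-fold and OR2M4, an olfactory receptor, at least 1.47-fold. IL13RA2, MPP4, LY96 and PARVB were above background on 0 arrays of 16HBE-WT cells, so they were tested only because of the stimulated arrays where they were high, and their calls are no support. The groups overlapped in PARVB. In the other direction, NEBL, an actin-binding protein, was at least 2.93-fold lower, PLEKHS1 at least 2.77-fold, EGLN3, a prolyl hydroxylase that marks hypoxia-inducible factors, at least 2.29-fold and SAA4 at least 1.64-fold (adjusted p from 0.00192 to 0.0165 for the last 3). NEBL was above background on 1 array outside the unstimulated group. The second probe of EGLN3, above background on 1 unstimulated and 2 stimulated arrays, gave 0.93 (adjusted p = 0.407). The bound sets the mean of the brighter group against the lowest signal called well above background on the dimmer arrays, or the probe's own signal where that was higher. It holds for the processed signal only. With normexp the log2 changes were 0.64 for IL13RA2, 0.30 for MPP4, 0.31 for LY96, 0.12 for PARVB and 0.14 for OR2M4. They were -0.39 for NEBL, -0.41 for PLEKHS1, -0.22 for EGLN3 and -0.18 for SAA4. Of these genes only IL13RA2 stayed called with normexp.

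In 16HBE-WT cells HGF gave 0 called probes (0%) by limma, with a smallest adjusted p of 0.549 and 1694 probes at an unadjusted p below 0.05. Of the 30 largest rises and falls, 29 had the same sign in 16HBE-WT cells and all 30 were smaller there. The exception in sign was THBD, with 1.68 in 16HBE-ex14 and -0.18 ± 0.32 in 16HBE-WT cells (unadjusted p = 0.0011 for the difference). VIM changed by 2.30 and 1.01, KRT5 by -2.32 and -0.63, PREX1 by 1.78 and 0.41 and TRIM29 by -1.78 and -0.62. The PSG genes were nearer to each other in the 2 genotypes, with -1.88 and -1.25 for PSG6, -1.87 and -1.20 for PSG5 and -1.86 and -1.26 for PSG8 (unadjusted p for the difference from 0.213 to 0.255). Tested over all probes, the difference between the 2 responses was called for 0 probes by limma, with a smallest adjusted p of 0.213 and 1600 probes at an unadjusted p below 0.05, against 1730 to be had by chance. The tests therefore do not show, gene by gene, that a response was particular to 16HBE-ex14 cells. Since the 30 genes were chosen for large changes in 16HBE-ex14 cells, their smaller values in 16HBE-WT cells carry that choice.

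**Figure D2:**
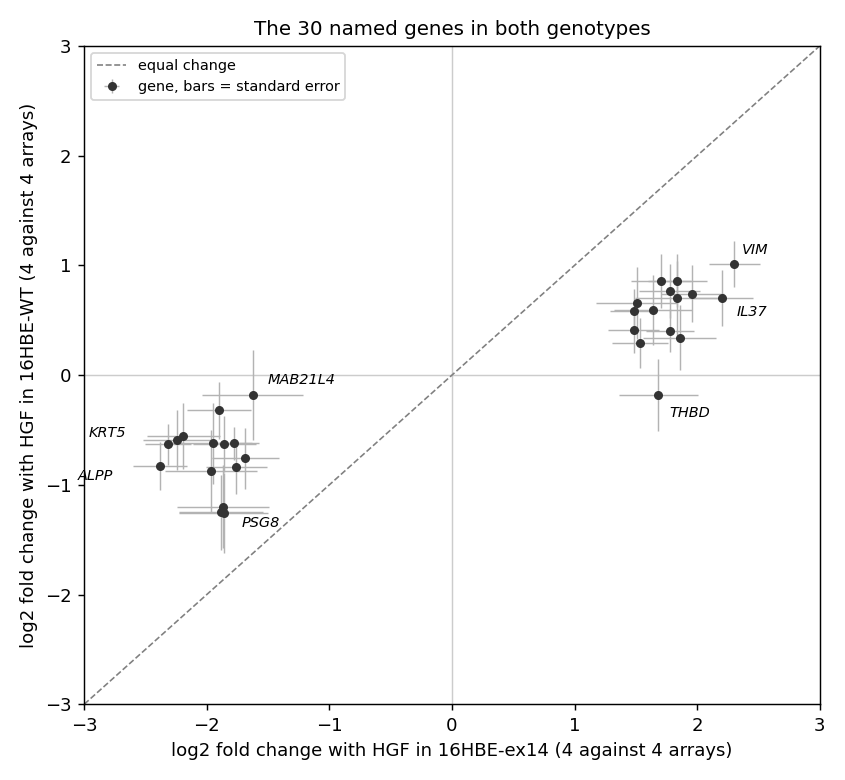
Log2 fold change with HGF in 16HBE-ex14 cells (x axis) and in 16HBE-WT cells (y axis) for the 30 genes, with bars for the standard error and a dashed line for equal change. All 30 points lie on the horizontal-axis side of the line, THBD has the opposite sign (1.68 and -0.18), and PSG8 (-1.86 and -1.26) lies closer to the line than KRT5 (-2.32 and -0.63).

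Of 29 gene lists on signalling and epithelial biology, 526 members had a tested probe, of which 32 rose (6.08%, against 1.13% of all genes) and 38 fell (7.22%, against 0.986%). The lists were drawn up with earlier results of these data known, so their shares describe the lists and test nothing. The same 1.13% raised and 0.986% lowered of all genes stand beside the counts of every list below. The list medians ran from -0.31 for sterol synthesis to 0.44 for plasminogen activation, beside 0.06 for all genes.

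**Figure D3:**
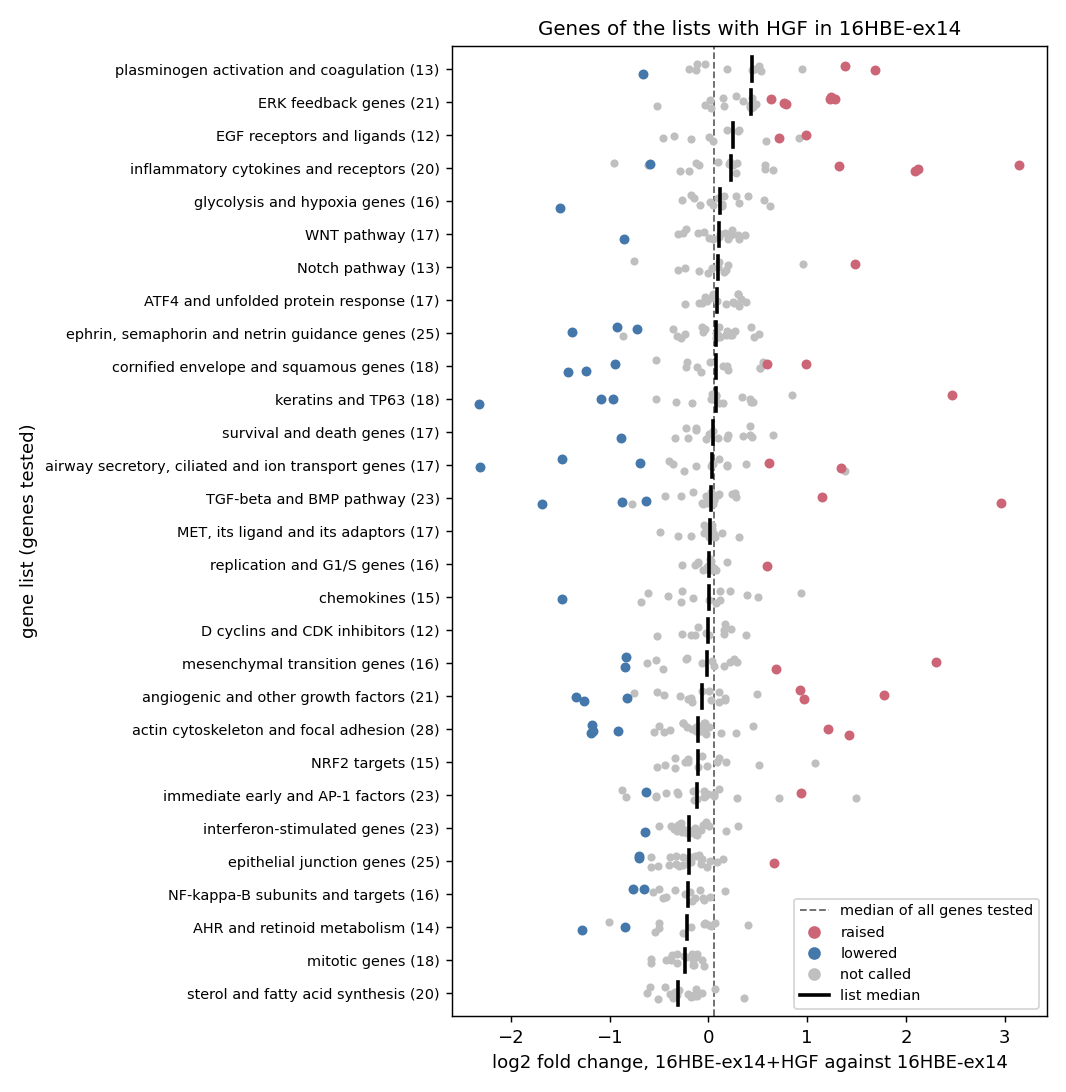
Log2 fold change with HGF in 16HBE-ex14 cells (x axis) for each tested gene of the 29 lists (y axis, number of genes in brackets), with raised genes in red, lowered genes in blue, genes not called in grey, a black bar at each list's median and a dashed line at the median of all genes (0.06). Lists with a median well away from that line still hold mostly grey points: 15 of 21 ERK feedback genes and 20 of 20 sterol genes were not called.

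MET itself did not pass the test. Its 1 probe read 4.91, 5.06, 5.18 and 5.26 without HGF and 5.05, 5.12, 5.21 and 5.26 with it, so the groups overlapped. The log2 change was 0.06 ± 0.11 (adjusted p = 0.872), with a 95% interval from -0.17 to 0.29, and its sign was negative when arrays were scaled by their median or by the spike-in probes. Where this probe lies relative to exon 14 was not examined, so it is no check of the edit. HGF had 2 probes, above background on 0 arrays. Of the 17 tested genes for MET, its processing enzymes and its adaptors, 0 passed the test, with values from -0.49 to 0.31. LRIG1, which limits signalling of several receptor kinases, had a value of -0.31 (adjusted p = 0.106), with no overlap between the groups.

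ERK feedback genes, which ERK induces and which in turn limit the pathway, gave 6 rises and 0 falls among 21 genes tested (28.6% raised, against 1.13% of all genes), with a median of 0.43. SPRY4, a Sprouty inhibitor of the RAS pathway, read -1.61, -1.53, -1.49 and -1.15 without HGF and -0.90, -0.11, -0.03 and 0.39 with it (1.28 ± 0.29, adjusted p = 0.0259). DUSP6, the cytoplasmic phosphatase of ERK, read 1.63, 2.04, 2.10 and 2.11 and then 2.38, 3.09, 3.66 and 3.73 (1.24 ± 0.29, adjusted p = 0.031). In both genes the groups were apart and the stimulated arrays spread over more than 1 log2 unit. ETV4 and ETV5, transcription factors of the PEA3 family, rose by 1.23 and 0.79 (adjusted p = 0.0178 and 0.0168), ETV4 from -1.78 to -0.73 without to -0.51 to 0.38 with HGF. SPRY1 read -1.73, -1.42, -1.34 and -1.33 and then -0.82, -0.69, -0.67 and -0.58 (0.76 ± 0.14, adjusted p = 0.00784), and both of its probes were called. The dimmer second probes of SPRY4 and DUSP6 were not called, with 0.67 and 0.23 (adjusted p = 0.0906 and 0.798). PHLDA2, a small pleckstrin homology protein, rose by 0.63 (adjusted p = 0.031). DUSP4, a nuclear phosphatase, had a value of 0.44 (adjusted p = 0.115) and DUSP1 one of -0.52.

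The number of ERK feedback genes raised was 6 with quantile normalization, 4 with the spike-in scaling and 2 with scaling to the array median. Leaving out replicate 1, 2, 3 or 4 of the unstimulated arrays gave 2, 1, 6 or 2, and leaving out replicate 1, 2, 3 or 4 of the stimulated arrays gave 4, 5, 1 or 2. SPRY1 was called in each of the 16 fits with 1 array left out. With normexp SPRY1 and ETV5 were not called, with changes of 0.48 each. In 16HBE-WT cells the 6 genes had values from 0.14 for SPRY4 to 0.41 for ETV4.

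Immediate early and AP-1 factors, which respond within the first hours of a stimulus, gave 1 rise and 1 fall among 23 genes at 24 h. FOSL1, the FOS family member FRA1, read 3.13, 3.52, 3.77 and 3.98 without HGF and 4.38, 4.40, 4.48 and 4.91 with it (0.94 ± 0.19, adjusted p = 0.0168). It was not called when unstimulated replicate 2 or stimulated replicate 3 was left out, nor with scaling to the array median. JUND, a JUN family member, fell by 0.63 (adjusted p = 0.00271), from 0.66 to 1.02 down to 0.09 to 0.25. With normexp JUND was not called (-0.52). FOSL2 had a value of -0.53 and EGR3, a zinc finger factor dim on most arrays, one of 1.5 (adjusted p = 0.0838 and 0.123).

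Of the genes for EGF receptors and their ligands, 2 of 12 rose and 0 fell. NRG1, the ligand neuregulin of ERBB3 and ERBB4, read 0.15, 0.29, 0.36 and 0.89 and then 1.17, 1.18, 1.58 and 1.73 (0.99 ± 0.17, adjusted p = 0.00598), and all 3 of its probes were called. AREG, the EGF receptor ligand amphiregulin, read 5.48, 5.60, 5.76 and 5.87 and then 6.22, 6.32, 6.52 and 6.52 (0.72 ± 0.11, adjusted p = 0.00249), by both of its probes. With scaling to the array median AREG was not called. NRG1 changed by 0.14 and AREG by 0.53 in 16HBE-WT cells. The receptor genes ERBB2 and ERBB3 had values of -0.35 and -0.46 (adjusted p = 0.0647 and 0.0531).

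**Figure D4:**
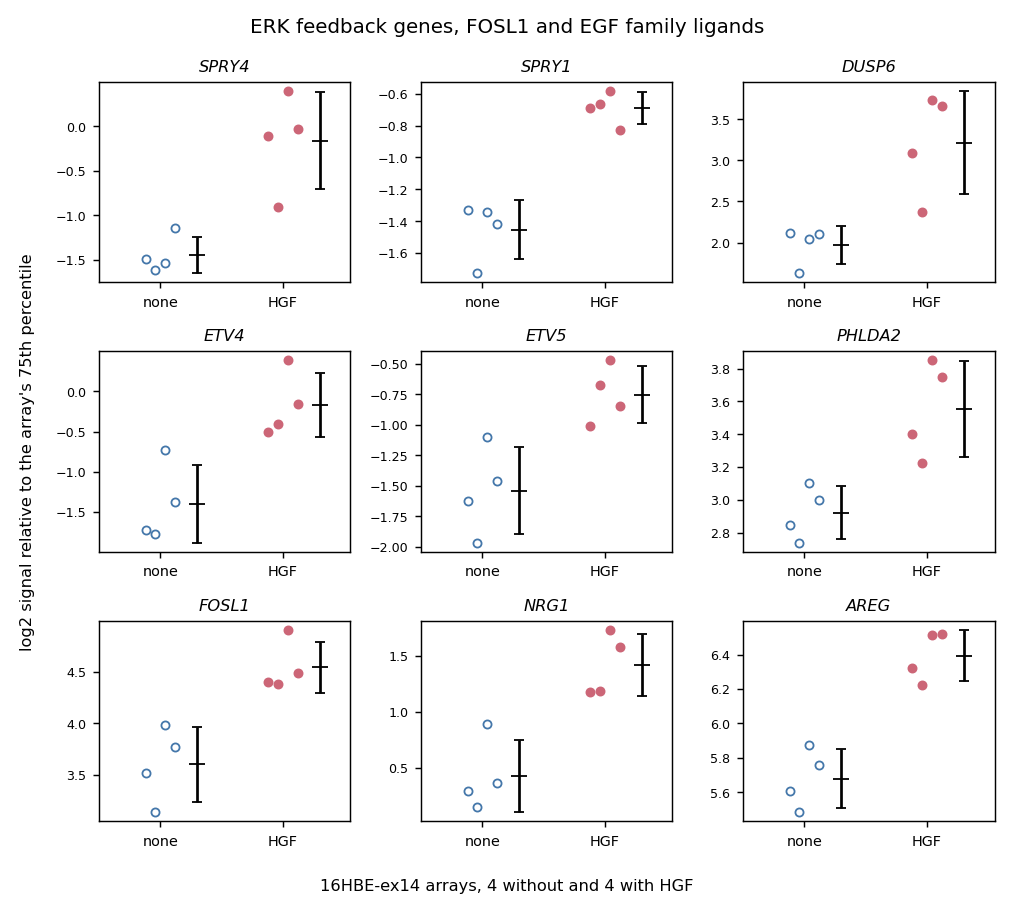
Log2 signal relative to the array's 75th percentile (y axis, a scale of its own in each panel) on the 4 unstimulated (open points) and 4 stimulated (filled points) 16HBE-ex14 arrays, with the mean and SD beside each group, for 6 ERK feedback genes, FOSL1, NRG1 and AREG. In all 9 panels the 4 stimulated arrays lie above the 4 unstimulated ones, with the smallest gap in ETV5 (-1.11 against -1.01).

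Because AP-1 factors bind a known short motif, promoters of the raised genes were searched for a loose form of it, TGANTCA, whose middle base is free. Both strands were searched in the 250 bases before the transcription start, as listed by RefSeq on GRCh38.p14. Of the 297 raised genes 168 had a promoter in that table, and 13 of these (7.74%) held this loose form. It was in 11 of 188 promoters of lowered genes (5.85%) and 699 of 14336 promoters of all genes tested (4.88%). A loose form of the NF-kappa-B motif, GGG and CC with 5 free bases between them, was in 72.6%, 71.8% and 65.1% of the same sets. None of the 11 largest rises found in the table held the loose form of the AP-1 motif. Leaving out the uncharacterised LOC105376382, the 3 largest rises with a match among genes above background on all 8 arrays were PRSS2, NOTCH4 and PRSS3, and their promoters are shown with the match in capitals because they show where the letters lie. PRSS2 is on chr7:142770720-142770969 (plus strand, match 159 bases before the start), NOTCH4 on chr6:32224068-32224317 (minus strand, 11 bases) and PRSS3 on chr9:33795311-33795560 (plus strand, 166 bases).
PRSS2: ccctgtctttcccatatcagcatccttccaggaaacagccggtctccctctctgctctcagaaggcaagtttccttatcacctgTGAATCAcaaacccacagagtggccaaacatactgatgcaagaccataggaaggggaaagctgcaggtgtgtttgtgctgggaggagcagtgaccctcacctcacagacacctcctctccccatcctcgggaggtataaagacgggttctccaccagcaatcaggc
NOTCH4: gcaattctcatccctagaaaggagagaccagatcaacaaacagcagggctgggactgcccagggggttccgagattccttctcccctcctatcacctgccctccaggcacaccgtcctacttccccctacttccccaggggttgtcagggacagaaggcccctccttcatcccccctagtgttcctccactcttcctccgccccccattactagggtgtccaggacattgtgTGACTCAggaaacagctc
PRSS3: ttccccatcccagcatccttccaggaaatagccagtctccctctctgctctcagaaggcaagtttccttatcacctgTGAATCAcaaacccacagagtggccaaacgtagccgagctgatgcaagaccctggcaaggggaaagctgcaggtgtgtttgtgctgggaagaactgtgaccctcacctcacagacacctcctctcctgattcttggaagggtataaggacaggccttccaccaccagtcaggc
The free base was A in PRSS2 and PRSS3 and C in NOTCH4. A match is a description of the letters, not a binding site or a cause. PRSS2, a trypsinogen, read -2.56, -2.33, -2.31 and -2.16 without HGF and -1.39, -1.08, -1.07 and -0.999 with it (1.20, adjusted p = 0.000571). PRSS3, another trypsinogen, rose by 1.05 (adjusted p = 0.0179), and the 2 genes are close paralogs whose probes may share signal. NOTCH4, a Notch receptor, rose by 1.17 (adjusted p = 0.0083).

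Growth factor genes moved both ways, with 3 rises and 3 falls among 21. This split was 1 and 5 with scaling to the array median and 1 and 4 with the spike-ins. Beside ANGPTL4, the VEGF receptor ligand PGF rose by 0.97 and the co-receptor NRP1 by 0.93 (adjusted p = 0.0264 and 0.0384). FGFR2, a receptor of FGF ligands, read 0.95, 1.37, 1.72 and 1.72 without HGF and -0.25, 0.02, 0.08 and 0.53 with it (-1.34 ± 0.19, adjusted p = 0.00181), by both of its probes. FGFR3 fell by 0.83 (adjusted p = 0.0291), while its dim second probe gave 0.15. IGFBP3, which binds insulin-like growth factors, read 2.46, 2.83, 3.17 and 3.31 and then 1.5, 1.60, 1.62 and 2.01 (-1.26, adjusted p = 0.00199). VEGFA had a value of 0.17. PGF, NRP1 and FGFR3 were each lost in at least 1 of the fits with 1 array left out.

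In the TGF-beta and BMP pathway 2 of 23 genes rose and 3 fell. With a filter on all 8 arrays there were 1 rise and 3 falls among 21. BMP6, a BMP ligand, read -4.73, -4.59, -4.44 and -3.38 without HGF and -2.08, -1.28, -1.05 and -0.87 with it (2.97 ± 0.48, adjusted p = 0.00425), with 3 of its 4 unstimulated arrays above background. NOG, the secreted BMP antagonist noggin, read 2.20, 2.34, 2.55 and 2.56 and then 3.24, 3.56, 3.57 and 3.88 (1.15 ± 0.18, adjusted p = 0.00335). BMP6 passed the filter on dim probes only through the stimulated arrays where it was high, so its call is no support. In 16HBE-WT cells NOG changed by 0.11 (unadjusted p for the difference 0.00106 by limma, where 0 of all probes passed the adjusted test). NOG is also named because of its call in 16HBE-ex14 cells, so that p carries the choice. In 16HBE-WT cells BMP6 was above background on 0 of 8 arrays, so it had no measured change there. With normexp BMP6 rose by 1.22. TGFB2, the decoy receptor BAMBI and the ID family factor ID4 fell, BAMBI by 0.63 and ID4 by 0.87 (adjusted p = 0.0163 and 0.0176), and the last 2 were not called when unstimulated replicate 2 or 4 or stimulated replicate 3 was left out, and ID4 also for stimulated replicate 4.

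In the WNT list 1 of 17 fell, the ligand WNT10A (-0.85, adjusted p = 0.022), whose groups overlapped, and in the Notch list JAG1 was the 1 call of 13, while the receptor gene NOTCH4, which that list does not hold, also rose. Among 25 guidance genes 3 fell (12%, against 0.986% of all genes), the ephrin EFNA1 by 0.72, the netrin NTN4 by 0.93 and the semaphorin SEMA3C by 1.38 (adjusted p = 0.0259, 0.00691 and 0.00932). EPHB2, an ephrin receptor, had an adjusted p of 0.0293 and a log2 change of 0.52, under the fold limit.

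Inflammatory cytokine and receptor genes gave 4 rises and 1 fall among 20, of which IL13RA2 was tested only because of its stimulated arrays. With a filter on all 8 arrays there were 1 rise and 2 falls among 16, with normexp 3 and 1, and with the spike-ins 4 and 0. Beside IL13RA2, CSF3, the granulocyte growth factor, read -5.35, -4.71, -4.20 and -3.71 without HGF and -3.12, -2.51, -2.26 and -1.59 with it (2.12 ± 0.37, adjusted p = 0.00691). IL1RL1, the receptor ST2 of the interleukin-1 receptor family, rose by 2.09 (adjusted p = 0.0101). The unstimulated signal was above background on 2 of 4 arrays for CSF3 and 1 of 4 for IL1RL1, so these sizes rest on dim values, and with normexp they were 0.68 and 0.52. IL24, of the interleukin 10 family, read -1.03, -0.95, -0.43 and -0.37 and then -0.06, 0.43, 1.04 and 1.07 (1.32, adjusted p = 0.0121), and IL32 fell by 0.59 (adjusted p = 0.0328). The second probes of IL24 and IL32 were not called, with 1.23 and -0.55 (adjusted p = 0.0833 and 0.0691). The values of IL6 and TNF were -0.61 and -0.95 (adjusted p = 0.488 and 0.0595). Among 15 chemokine genes 1 fell: CCL2, which attracts monocytes, read 1.27, 1.87, 2.00 and 2.25 and then 0.02, 0.35, 0.44 and 0.65 (-1.48 ± 0.24, adjusted p = 0.00416).

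NF-kappa-B subunit and target genes had a median of -0.21, with 14 of 16 values negative, 2 falls (12.5%, against 0.986% of all genes) and 0 rises. NFKBIA, the inhibitor that NF-kappa-B induces, read 5.57, 5.66, 5.84 and 6.04 without HGF and 5.07, 5.10, 5.11 and 5.23 with it (-0.65, adjusted p = 0.00565). BCL3, a nuclear cofactor, fell by 0.76 (adjusted p = 0.0233). In NFKB2, NFKBIE and TNFAIP2 the values were -0.34, -0.43 and -0.56, past the adjusted p and under the fold limit. In 7 of the 16 genes the stimulated arrays all lay below the unstimulated ones, where 4.46% of all genes did so. The list had 0 calls when unstimulated replicate 4 was left out, 1 for unstimulated replicate 2 or stimulated replicate 2, 3 or 4, and 3 for unstimulated replicate 1. Interferon-stimulated genes had a median of -0.19 with 20 of 23 values negative, and 1 fell, the transcription factor IRF1 (-0.64, adjusted p = 0.038). The medians of both lists were negative under all 4 scalings, of which those to the array median and the spike-ins could only lower them.

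Plasminogen activation and coagulation genes had a median of 0.44, with 2 rises and 1 fall among 13. Beside THBD, the protease inhibitor SERPINE2 rose by 1.39 (adjusted p = 0.0088), from -1.12, -1.08, -1.06 and -0.13 to 0.40, 0.43, 0.57 and 0.76. TFPI, the inhibitor of the tissue factor pathway, fell by 0.66 (adjusted p = 0.0105). The receptor gene PLAUR had a value of 0.51 at an adjusted p of 0.0482, under the fold limit, and its ligand gene PLAU one of 0.53 (adjusted p = 0.097).

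Keratin genes moved apart, with 1 rise and 3 falls among 18 genes that include TP63. KRT14, the usual partner of KRT5 in basal cells, read -0.22, 0.04, 0.19 and 0.50 without HGF and -0.89, -0.88, -0.85 and -0.76 with it (-0.97, adjusted p = 0.0283), while its dim second probe was not called (-0.37). KRT17, a keratin of basal and injured epithelium, fell by 1.08 (adjusted p = 0.0101). KRT6B, a keratin induced by injury, read -4.90, -4.49, -3.68 and -3.40 and then -1.99, -1.74, -1.64 and -1.23 (2.47, adjusted p = 0.00156), with 2 of 4 unstimulated arrays above background and a change of 0.90 with normexp. The value of KRT6A was 0.85 (adjusted p = 0.134), that of the simple epithelial keratin KRT8 0.35 and that of TP63, the master regulator of basal cells, 0.43, none of them called.

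Of 18 cornified envelope and squamous genes, 2 rose and 3 fell. TGM1, the transglutaminase that crosslinks the envelope, read 0.29, 0.65, 0.89 and 1.06 without HGF and -0.77, -0.72, -0.71 and -0.58 with it (-1.42 ± 0.15, adjusted p = 0.00051). The protease KLK7 fell by 0.95 and the calcium-binding S100A12 by 1.24 (adjusted p = 0.0217 and 0.00747). The envelope protein SPRR2A rose by 0.99 and S100A9 by 0.60 (adjusted p = 0.018 and 0.0148). The dim second probe of SPRR2A was not called (0.35). S100A9 was not called with normexp or with the median and spike-in scalings, S100A12 was not called with normexp (-0.30), and the list had 0 rises under each of these 3 settings.

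Epithelial junction genes had a median of -0.20, with 21 of 25 values negative and with 10 of 25 whose stimulated arrays all lay below the unstimulated ones (4.46% of all genes). Past the limits, 2 fell and 1 rose. CLDN1, a claudin of tight junctions, read 1.89, 1.98, 2.22 and 2.36 without HGF and 1.28, 1.40, 1.44 and 1.49 with it (-0.71 ± 0.13, adjusted p = 0.00778). The tight junction protein CGN read 4.04, 4.19, 4.58 and 4.58 and then 3.41, 3.56, 3.61 and 3.99 (-0.70, adjusted p = 0.0309). PKP1, a plakophilin of desmosomes, rose by 0.66 (adjusted p = 0.0237), while its second probe was not called (0.65, adjusted p = 0.0585). CDH1, which encodes E-cadherin, and DSG3, a desmosomal cadherin, had log2 changes of -0.58 each (adjusted p = 0.0347 and 0.0296) and were under the fold limit, and EPCAM had a value of 0.08. Of these 3 calls, that of CLDN1 was kept in each of the 16 fits with 1 array left out. The number of falls was 5 when unstimulated replicate 3 was left out, 4 for unstimulated replicate 1 or stimulated replicate 1, and 1 for unstimulated replicate 2 or 4 or stimulated replicate 2, 3 or 4.

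Of 16 mesenchymal transition genes, 2 rose and 2 fell, with a median of -0.02. TWIST2, a helix-loop-helix factor, read -0.41, -0.37, -0.22 and 0.06 without HGF and 0.36, 0.39, 0.52 and 0.55 with it (0.69, adjusted p = 0.00321), while its second probe was not called (0.54). SPARC, a secreted matrix-binding protein, read 6.40, 6.60, 6.91 and 6.98 and then 5.78, 5.79, 5.92 and 6.07 (-0.83, adjusted p = 0.0166), and the lysyl oxidase LOXL2 fell by 0.84 (adjusted p = 0.00878). The values of the transcription factors SNAI1 and SNAI2 were 0.15 and 0.26, that of N-cadherin, CDH2, -0.21 and that of fibronectin, FN1, -0.53, none of them called. VIM thus rose in a list whose median lay below that of all genes.

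**Figure D5:**
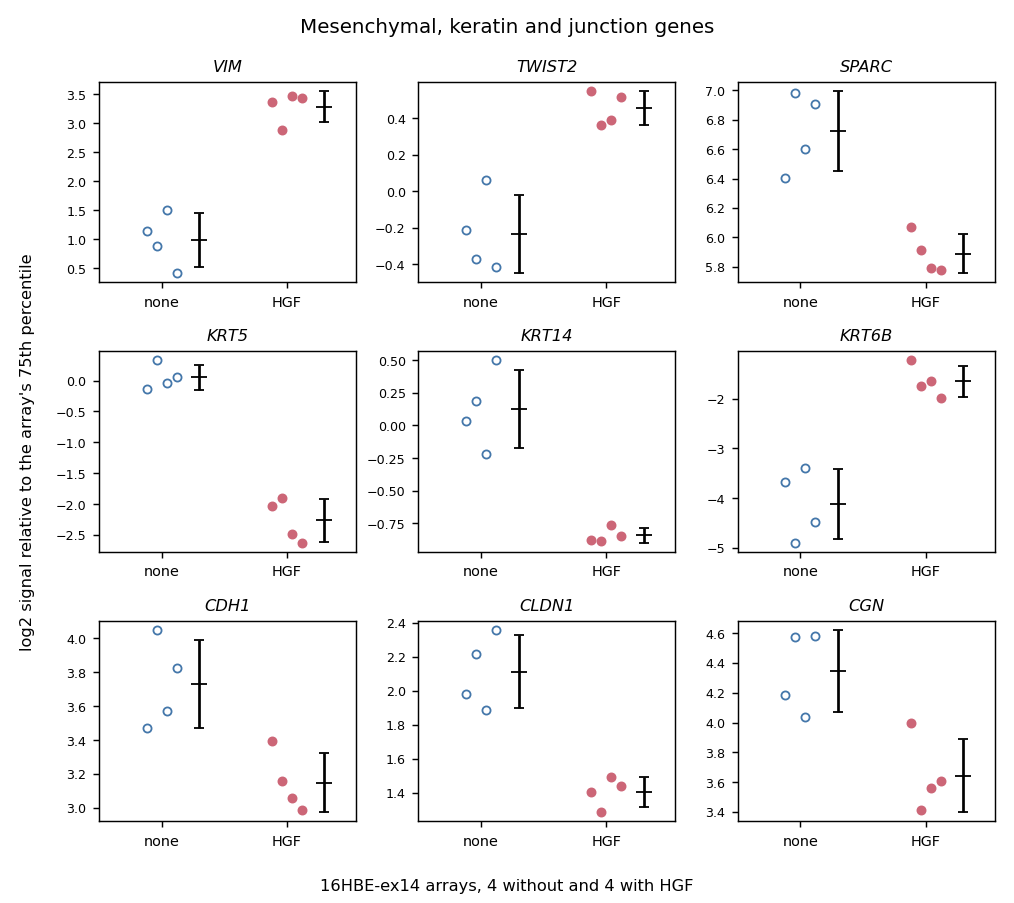
Log2 signal relative to the array's 75th percentile (y axis, a scale of its own in each panel) on the 4 unstimulated (open points) and 4 stimulated (filled points) 16HBE-ex14 arrays, with the mean and SD beside each group, for 3 mesenchymal, 3 keratin and 3 junction genes. VIM, TWIST2 and KRT6B rise and SPARC, KRT5, KRT14, CLDN1 and CGN fall, while CDH1 (-0.58) is under the fold limit though its groups do not overlap.

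In the list of the actin cytoskeleton and focal adhesions 2 of 28 genes rose and 4 fell. FERMT1, the kindlin that activates integrins, read 2.56, 2.59, 2.69 and 3.30 without HGF and 3.92, 4.13, 4.21 and 4.61 with it (1.43, adjusted p = 0.00156). TNS4, a tensin without an actin-binding domain, rose by 1.21 and TNS3, another tensin, fell by 1.16 (adjusted p = 0.0162 and 0.0119). The myosin kinase MYLK fell by 1.18, the myosin light chain MYL9 by 1.19 and the tropomyosin TPM1 by 0.92 (adjusted p = 0.00269, 0.00271 and 0.0111). MYL9 read 1.24, 1.33, 1.67 and 1.92 and then 0.14, 0.16, 0.50 and 0.59. TPM1 was called by all 3 of its probes and MYLK by both.

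Genes of airway differentiation and ion transport gave 2 rises and 3 falls among 17. ANO1, a calcium-activated chloride channel, read 1.10, 1.25, 1.38 and 2.18 without HGF and 2.68, 2.81, 2.87 and 2.93 with it (1.34, adjusted p = 0.00181), opposite in direction to ANO2. The second probe of ANO1, above background on 1 unstimulated array, gave 1.90 and was not called (adjusted p = 0.0749). SPDEF, a factor of goblet cells, rose by 0.61 (adjusted p = 0.0137), a call lost with normexp and with the quantile, median and spike-in scalings. ELF3, an epithelial ETS factor, read 2.41, 2.58, 3.13 and 3.18 and then 1.03, 1.15, 1.44 and 1.76 (-1.48 ± 0.19, adjusted p = 0.00156). FOXI1, the factor of ionocytes, fell by 2.31 (adjusted p = 0.0118) to a signal above background on 1 of 4 stimulated arrays (-0.69 with normexp), and the sodium channel subunit SCNN1A fell by 0.70 (adjusted p = 0.0399). CFTR, the chloride channel of cystic fibrosis, had a value of 0.05.

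Few proliferation genes passed the limits at 24 h. Of 18 mitotic genes 0 were called, yet all 18 values were negative (10432 of all 26368 genes were), with a median of -0.23, and in 5 of them the stimulated arrays all lay below the unstimulated ones (4.46% of all genes). With the median and the spike-in scalings 2 of them fell. KIF20A, a mitotic kinesin, and TOP2A, a topoisomerase, had values of -0.58 each (adjusted p = 0.0281 and 0.0384), under the fold limit. Of 16 replication genes the cyclin CCNE1 rose, by 0.59 (adjusted p = 0.00745), with the unstimulated arrays from 3.54 up to 3.996 and the stimulated ones from 4.24 to 4.48, a call lost with normexp and with each of the 3 other scalings. Of 12 genes for D cyclins and CDK inhibitors 0 were called. Among 17 survival and death genes, the BH3-only gene BMF fell by 0.88 (adjusted p = 0.0257), while its dim second probe gave 0.25.

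Metabolic lists gave few calls as well. The 20 sterol and fatty acid synthesis genes had 0 calls, a median of -0.31 and 18 negative values, with HMGCS1 at -0.62 (adjusted p = 0.0749). In 16HBE-WT cells the median of that list was -0.19. Of 14 genes of AHR and retinoid metabolism 2 fell. ALDH1A1, a retinal dehydrogenase, read 4.39, 4.42, 4.51 and 4.53 without HGF and 3.07, 3.13, 3.25 and 3.29 with it (-1.28 ± 0.15, adjusted p = 0.00101), by both of its probes. ALDH3B1 fell by 0.84 (adjusted p = 0.00271), by 2 of its 4 probes. In the glycolysis and hypoxia list EGLN3 was the 1 call of 16, and the 15 NRF2 targets and 17 ATF4 and unfolded protein response genes had 0 calls each. The medians of the mitotic, sterol, junction, actin and AHR lists were negative under all 4 scalings. The median and spike-in scalings lowered every change by 1 amount, so a negative median could not have turned positive there. A change of the scaling factor moves every gene by 1 amount, so no direction is given for lists with a median near 0, such as the WNT, Notch, keratin and hypoxia lists.

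Beside the genes for which it is stated above, the calls of JUND, NFKBIA, BCL3, IRF1, WNT10A, EFNA1, IL24, IL32, TFPI, KRT14, KLK7, S100A9, SPRR2A, CGN, PKP1, SPARC, TNS3, TNS4, SCNN1A, SPDEF, CCNE1, BMF, TMEM200A, PSG5, PSG8, MPP4, LY96, PARVB, OR2M4, NEBL and SAA4 were lost in at least 1 of the 16 fits with 1 array left out, each with its sign kept. Those of VIM, TWIST2, LOXL2, KRT5, KRT17, KRT6B, TGM1, S100A12, FERMT1, MYLK, MYL9, TPM1, NRG1, AREG, JAG1, NOG, CCL2, ALDH1A1 and ALDH3B1 were kept in all 16.

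Other splits of called list members also moved with the settings. The junction list had 0 rises with normexp and with the median and spike-in scalings, and 4 falls with the median scaling. The mesenchymal list had 1 rise under each of these 3 settings, and 4 falls with the median scaling. The NF-kappa-B list had 4 falls with both of those scalings, the AHR list 4 and 5, and the chemokine list 2 and 3. The hypoxia list had 0 calls with normexp.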

How the data were processed

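RNA of 4 samples per condition (16 in all) was measured on one-colour Agilent arrays. As deposited by the authors, intensity values are the processed signals of Agilent Feature Extraction 10.7.3.1 (version per the submitters' processing notes), background-subtracted and detrended on a linear scale, without scaling between arrays. The deposited series table holds the same values at all 62976 spots. The deposited files also hold other columns, marks for outlier spots and for signals well above background, which are used as filters. The precision is limited by the number of arrays.

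Outlier spots were left out, log2 values taken, the 75th percentile of each array subtracted, spots of a probe averaged, and a probe tested if at least 4 of the 16 arrays had it well above background. limma 3.58.1 in R 4.3.3 fitted 1 mean for each condition to all 16 arrays. Calls needed an adjusted p below 0.05 and more than 1.5-fold change, the limits the study used. A gene is represented by its brightest tested probe. Named are the 15 largest rises and falls among called genes above background on all 8 arrays without overlap, leaving out names of unnamed transcripts, antisense genes and matrix families, the 5 largest bounds each way (4 downward existed), every called list member, MET and HGF. Genes outside this rule are named as values under the limits or near them. The members and lists were chosen with earlier results of these data known. Gene names and hg19 positions are those of the array annotation, with 18847 names matched to the RefSeq table. The fit was tested on simulated data. Alternatives covered background correction, scaling, filters, blocks, the samples fitted, the prior, weights and single arrays left out. Figures were drawn with matplotlib 3.10.9 and pandas 2.3.3 in Python 3.11.15; the R packages data.table (1.17.8) and jsonlite (2.0.0) read the files. Matrix metalloproteinase, integrin and collagen families were not described here.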

Additional observations from a re-analysis of the deposited data

Results flagged for a closer look

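In 10 of the 208 groups of 4 arrays examined over the reported genes, 1 array lay far from the other 3, its gap to the nearest divided by the whole range being above Dixon's critical value for 4 samples. Chance flags about 1 in 20 groups. In 16HBE-ex14 replicate 3 this held for SERPINE2 (-0.13, others -1.12 to -1.06, ratio 0.935), NRP1 (0.46, others -0.24 to -0.18, 0.911), PLCD4 (-2.37, others -3.21 to -3.10, 0.861) and PARVB (-4.14, others -5.02 to -4.97, 0.95). In each of these the far array lay toward the stimulated arrays. In 16HBE-ex14+HGF replicate 3 it held for FOXL1 (1.16, others 0.67 to 0.69, ratio 0.969), ANO2 (-3.68, others -2.50 to -2.33, 0.874) and KRT17 (-1.53, others -1.39 to -1.36, 0.835), and in each the far array lay away from the unstimulated ones. In 16HBE-ex14 replicate 2 it held for LOXL2 (4.71, others 4.29 to 4.32, ratio 0.916) and DUSP6 (1.63, others 2.04 to 2.11, 0.844), and in 16HBE-ex14 replicate 4 for IRF1 (2.33, others 1.90 to 1.96, 0.865). These 3 lay away from the stimulated arrays. Of the reported genes, 0 had an adjusted p from limma below 0.05 for the difference between the HGF responses of the genotypes.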

How the results depend on the processing

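The 693 calls became 411 with normexp background correction and 246 with only the 8 16HBE-ex14 arrays fitted, and ran from 346 to 977 with 1 array left out. The difference between the genotypes' responses, with 0 calls, gave 4 with normexp (VIM, MMP1, BMP6 and an unnamed probe), 4 with a trended and robust prior (MMP1, KRT5, SPNS2 and GPRIN2) and 0 to 11 with 1 array left out, 11 without 16HBE-ex14 replicate 3 and 1 without 16HBE-WT+HGF replicate 3. MET, at 0.06, was -0.10 with scaling to the array median, -0.0601 with the spike-ins and between -0.0027 (without 16HBE-ex14 replicate 1) and 0.11 with 1 array left out. The 75th percentile difference of -5.39 ran from -18.47 to 1.89 with 1 array left out, 1.89 without 16HBE-ex14+HGF replicate 2, a check added after seeing the data. The cause was not tested in these cases. Fewer arrays enter only where 1 array was left out or only the 8 16HBE-ex14 arrays were fitted.

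The other settings gave 557 calls without a filter, 685 with a filter on all 8 arrays, 653 with quantile normalization, 730 when scaled to the array median, 665 when scaled to the spike-ins, 693 with outlier spots kept, 825 with slide as a block, 779 with the trended prior, 899 with array weights and 998 without a fold limit. Every probe called in the first fit and tested in these settings kept its sign. This was fixed in advance where a setting altered only the test, and for the median and spike-in scalings, whose shift is smaller than the fold limit. Of the 101 called genes reported by the naming rule, 57 stayed called with any 1 of the 16 arrays left out and 39 in every alternative run, 76 with normexp, 95, 85 and 89 with the quantile, median and spike-in scalings, 82 without a filter and 47 with only the 8 arrays fitted. Array row as a replicate block, tried because row numbers follow the replicate numbers, gave 734 calls (652 of the 693) and 0 for the difference. Same-numbered arrays deviated together only weakly, with correlations of 0.09, 0.15, 0.24 and 0.18, and 1 of 4 pairs correlated best with its own number, so the numbers were not taken as pairing the samples. Dim probes limit the sizes given: 26 called genes were below background on all unstimulated arrays and 7 on all stimulated arrays.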

Other observations

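The families below were chosen after their values were seen, and their counts describe them only. Metallothionein genes, whose small proteins bind zinc and copper, rose in 7 of 12 tested cases, where 1.13% of all genes rose. MT1E read 7.22, 7.42, 7.58 and 7.97 without HGF and 8.09, 8.49, 8.73 and 8.75 with it (0.97, adjusted p = 0.0102, limma). The other rises were MT1HL1 by 1.30, MT1A by 1.08, MT1B by 1.05, MT1L by 1.00, MT1X by 0.73 and MT1M by 0.71. In each of these the groups were apart and higher with HGF, as in 4.48% of all genes. MT2A, the brightest, had a value of 0.05, MT1F 0.30 and MT3 0.24. In 16HBE-WT cells the 7 genes had values from 0.10 to 0.35. All but MT1HL1 lie together on chromosome 16 and their transcripts are near-identical, so the probes may share signal.

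Caveolae genes moved in both directions. CAV1, the caveolin that builds the coat, read 5.64, 5.70, 5.78 and 5.79 without HGF and 4.63, 4.64, 4.71 and 4.72 with it, a fall of 1.05 ± 0.10 (adjusted p = 0.000196), and CAV2 fell by 0.62 (adjusted p = 0.00213). CAVIN3, of the caveolar coat, rose by 1.04 (adjusted p = 0.0214), and CAVIN1 had a value of -0.13. The chromatin proteins HMGA1 and HMGA2, abundant in embryonic and tumour cells, rose by 0.70 and 1.28 (adjusted p = 0.0205 and 0.00511). The interferon lambda genes IFNL2 and IFNL3 fell by 0.72 and 0.81, and the interferon-induced GTPase gene GBP1 by 1.47, as 1 of 5 of its family (adjusted p = 0.0304, 0.0328 and 0.00156). Of the serum amyloid A genes, SAA2 fell by 1.56 beside SAA1 and SAA4, while SAA3P had a value of -0.03. Of the DOCK, FGD and PREX exchange factors, PREX1, DOCK4 and FGD3 were the 3 called of 18, where 2.11% of all genes were called.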
